A study of Homo sapiens with 80 samples.

Results

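The comparison asked whether the transcriptome of Jurkat T cells, an immortalized human T lymphocyte line, kept changing while the cells stood after a routine laboratory centrifugation. All cells of the comparison had been spun at 300 g for 5 min and were fixed either 15 min (wait15min, libraries 61 to 64) or 1 min (wait1min, libraries 53 to 56) after the centrifuge stopped, and the 4 min group (wait4min, libraries 57 to 60) was the point between. These 8 libraries, of the 80 in the series, are those that carry the treatment labels wait15min and wait1min. Uncentrifuged cells of the same experiment (A-Ctrl, libraries 49 to 52) gave a level for comparison. The paper states that they were fixed directly, so time before fixation and handling also differed from those of the spun cells. All 4 groups came from the clone E6-1 in culture medium with serum, no gene was altered, and no source used here says whether the 4 libraries of a group came from separate cultures, so the spread between them may be technical. RNA was extracted on columns, depleted of ribosomal RNA and sequenced with strand information, which keeps transcripts without a poly(A) tail. Such columns retain very short RNA poorly, so levels of short RNAs also depend on extraction, and the part of this in the results was not tested.

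Total counts lay between 24417717 and 30259450 in the 12 waiting libraries and between 28665290 and 41220541 in A-Ctrl, so depth was similar in both groups compared. The first principal component of the waiting libraries held 15.4% of the variance and set library 54 (wait1min) and library 64 (wait15min) apart, whereas the second, with 11.1%, held all 4 wait1min libraries at 6.53 or more and all others at -0.32 or less. All 11 T cell genes listed, among them CD3E and LCK, were expressed, with a summed level of 3256 CPM at wait1min and 3313 CPM at wait15min, whereas markers of other cells were mostly near 0. Of the 18 listed, EPCAM, S100A8 and PF4 had no count in any of the 16 libraries, CD79A had 28.3 to 63.0 CPM, COL1A1 had group means of 4.37 to 6.88 CPM, and the other 13 stayed below 1 CPM in every library. CPM here means counts scaled to the size of the library, corrected by the trimmed mean of M-values (TMM). The column names of the deposited table read instant for wait1min and 1min for wait4min, and the sample titles and treatment labels were followed. Library numbers run on from group to group, so that an effect of handling order cannot be told apart from waiting time.

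Of the 26 genes that differed between 1 min and 15 min, 14 encoded short, structured RNAs of the nucleus. Small nucleolar RNAs (snoRNAs) guide the chemical modification and the cutting of ribosomal RNA in the nucleolus, and fall into a box C/D and a box H/ACA class. Small Cajal body RNAs (scaRNAs) guide the modification of the small nuclear RNAs (snRNAs), which form the core of the spliceosome. These RNAs carry no poly(A) tail, and in human cells most snoRNAs and scaRNAs are cut out of the introns of host genes.

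Of 17446 genes tested, 26 were called at an adjusted p-value under 0.05 (edgeR's quasi-likelihood test, Benjamini-Hochberg), which was 0.149% of the genes. Of these, 24 fell (0.138%) and 2 rose (0.0115%), and 4 of the falling genes also passed a log2 fold change of 1 (0.0229%). The 26 genes comprised 7 snoRNAs, 3 scaRNAs, 4 snRNAs, 6 protein-coding genes and 6 genes of other types. At an unadjusted p-value under 0.05, 2192 genes differed. In bulk RNA, less RNA per cell and fewer cells with that RNA cannot be told apart, and every value is relative to the rest of the library.

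The sequences below are called RNAs of each class, printed from the GENCODE release 29 transcripts on GRCh38 so that the kinds of RNA that fell can be seen. The first 4 carry a C box and a D box, the landmarks of box C/D RNAs, shown in capitals as TGATGA and CTGA on the RNA's own strand. They lie at chr17:19188016-19188232 (plus strand), chr20:17962710-17962946 (minus), chr2:233275727-233276002 (plus) and chr2:233288676-233288940 (plus). SNORD3A is U3, which takes part in cutting the ribosomal RNA precursor and not in its modification. It is shown as its annotated RNA of 217 bases, while the count table uses an exon of 699 bases.
SNORD3A: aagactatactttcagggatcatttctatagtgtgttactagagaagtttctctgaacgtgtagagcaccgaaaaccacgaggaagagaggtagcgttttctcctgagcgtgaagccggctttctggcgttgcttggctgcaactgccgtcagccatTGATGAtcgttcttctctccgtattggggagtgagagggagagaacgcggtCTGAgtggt
SNORD17: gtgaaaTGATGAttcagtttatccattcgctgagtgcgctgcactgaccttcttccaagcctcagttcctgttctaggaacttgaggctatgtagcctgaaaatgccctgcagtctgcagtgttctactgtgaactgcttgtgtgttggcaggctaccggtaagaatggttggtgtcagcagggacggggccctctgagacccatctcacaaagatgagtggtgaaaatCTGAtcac
SCARNA5: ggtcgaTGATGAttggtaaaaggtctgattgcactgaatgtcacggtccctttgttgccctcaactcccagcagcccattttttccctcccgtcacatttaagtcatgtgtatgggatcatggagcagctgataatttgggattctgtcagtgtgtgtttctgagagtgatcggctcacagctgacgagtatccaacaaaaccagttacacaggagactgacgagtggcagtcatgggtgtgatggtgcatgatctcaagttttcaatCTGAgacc
SCARNA6: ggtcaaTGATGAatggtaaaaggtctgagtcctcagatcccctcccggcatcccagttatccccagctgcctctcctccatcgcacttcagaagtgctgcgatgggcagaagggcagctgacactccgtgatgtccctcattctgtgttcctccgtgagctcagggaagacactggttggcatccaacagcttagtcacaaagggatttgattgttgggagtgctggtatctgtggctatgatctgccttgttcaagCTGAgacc

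The following 2 are box H/ACA RNAs at chr1:28508559-28508762 (plus strand) and chr11:9428773-9428954 (plus), with the ACA box that ends 3 bases before the end of the RNA in capitals.
SNORA73B: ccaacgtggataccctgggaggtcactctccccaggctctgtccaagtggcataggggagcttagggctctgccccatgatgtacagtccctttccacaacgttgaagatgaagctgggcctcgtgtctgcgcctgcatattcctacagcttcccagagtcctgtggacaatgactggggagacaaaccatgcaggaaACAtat
SNORA23: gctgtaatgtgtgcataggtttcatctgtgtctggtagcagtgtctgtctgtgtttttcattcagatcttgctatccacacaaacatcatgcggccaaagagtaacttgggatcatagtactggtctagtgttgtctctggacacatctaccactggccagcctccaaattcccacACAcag

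The last 3 are spliceosomal snRNAs. RNU4-1 (chr12:120293097-120293237, minus strand) and RNU4-2 (chr12:120291763-120291903, minus) encode U4, and their Sm site, on which the ring of Sm proteins assembles, is in capitals (ATTTTTG). RNU6ATAC (chr9:134164439-134164564, minus) encodes U6atac of the minor spliceosome, and its capitals mark the run of T at which RNA polymerase III ends.
RNU4-1: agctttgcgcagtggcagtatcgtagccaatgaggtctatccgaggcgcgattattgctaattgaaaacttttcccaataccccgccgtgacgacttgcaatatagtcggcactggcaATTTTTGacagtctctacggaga
RNU4-2: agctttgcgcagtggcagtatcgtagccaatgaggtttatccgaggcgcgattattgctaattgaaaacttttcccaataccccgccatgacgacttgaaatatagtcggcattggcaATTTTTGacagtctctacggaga
RNU6ATAC: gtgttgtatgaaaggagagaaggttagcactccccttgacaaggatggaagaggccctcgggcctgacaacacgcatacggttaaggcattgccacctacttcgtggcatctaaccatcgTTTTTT

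The 2 U4 copies differ at 4 of 141 positions (97.2% identity), which are C37T, G88A, C99A and C113T counted from the 5′ end, with the RNU4-1 base first. Reads from either copy can be hard to place, so their separate values are uncertain. On the sense strand, TGATGA followed by CTGA was present in 36 of the 49 box C/D RNAs tested (73.5%) and in 3 of 3 called. An ACA triplet at the sixth base from the end was present in 37 of 49 tested box H/ACA RNAs with a sequence (75.5%) and in 2 of 4 called. ATTTTTG or ATTTTTTG was present in 7 of 18 snRNAs tested (38.9%) and in 3 of 4 called. The motifs describe the classes. Whether they are more or less common in called members was not tested, and 3 or 4 called members per class are too few to tell.

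SNORD3A (U3) had the lowest p-value of all genes. Its level in the wait1min libraries was 932, 1178, 1047 and 849 CPM, and in the wait15min libraries 540, 467, 480 and 387 CPM. Every wait15min library was thus below every wait1min library. Such a lack of overlap, in either direction, was found in 23 of the 26 called genes and in 1234 of all genes tested (7.07%). The log2 fold change of SNORD3A was -1.09 ± 0.087 (standard error, n = 4 and 4, adjusted p = 3.97e-06). The wait4min libraries, at 496, 498, 552 and 531 CPM, overlapped those of wait15min, and the A-Ctrl libraries were at 1660 to 1870 CPM. The lower level after 15 min was therefore a step further from uncentrifuged cells, at 26.8% of the A-Ctrl mean. Other SNORD3 copies are near-identical, so the split of reads among them is uncertain. The copy SNORD3B-2 had 10.0 CPM at wait1min and 8.76 CPM at wait15min (adjusted p = 0.325).

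SNORD17, a further box C/D RNA, had 30.6, 34.5, 28.3 and 30.0 CPM at wait1min and 20.4, 19.1, 19.4 and 17.7 CPM at wait15min. The groups did not overlap, and the log2 fold change was -0.68 ± 0.062 (adjusted p = 1.70e-05). SNORD15B, which is cut from an intron of the ribosomal protein gene RPS3, had 3.87 to 5.20 CPM at wait1min and 2.48 to 3.35 CPM at wait15min (log2 fold change -0.66, adjusted p = 0.0283). Of 314 box C/D genes in the table, 49 passed the filter on low counts, 3 fell and none rose. Their median log2 fold change was -0.045, against 0.0017 over all genes tested, and lay between -0.018 without library 62 and -0.091 without library 61.

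Among box H/ACA RNAs, SNORA73B had 141, 174, 146 and 130 CPM at wait1min and 96.8, 87.2, 88.0 and 74.4 CPM at wait15min (log2 fold change -0.76 ± 0.075, adjusted p = 3.91e-05). SNORA73B is one of the snoRNAs that take part in cutting the ribosomal RNA precursor. SNORA23 was at 11.4, 12.4, 9.78 and 10.7 CPM at wait1min and at 5.90, 6.68, 6.88 and 4.65 CPM at wait15min (-0.86 ± 0.10, adjusted p = 0.000378). The groups did not overlap for either RNA. SNORA53 (-0.89, adjusted p = 0.00893) and SNORA74A (-0.67, adjusted p = 0.0151) fell too. In all, 50 of 214 genes of this class were tested, 4 fell and none rose, with a median log2 fold change of -0.12. SNORA12, with 10.8 CPM at wait1min and 7.66 CPM at wait15min, did not pass the test (adjusted p = 0.106).

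All 3 scaRNAs with the highest counts fell. SCARNA5 had 33.8, 44.7, 39.5 and 38.5 CPM at wait1min and 27.6, 26.2, 23.9 and 22.2 CPM at wait15min (log2 fold change -0.64 ± 0.073, adjusted p = 0.000212). SCARNA6, which shares the host gene ATG16L1 with SCARNA5, had 19.9, 26.8, 21.2 and 19.7 CPM at wait1min and 14.4, 11.7, 13.6 and 11.4 CPM at wait15min (-0.77 ± 0.094, adjusted p = 0.000378). The lowest wait1min library stood above the highest wait15min library in both. SCARNA21 changed by -0.53 ± 0.078 (adjusted p = 0.00345), a call that was lost with a curve over gene length removed (adjusted p = 0.084). Of 25 scaRNA genes, 12 were tested, 3 fell and none rose, and the median was -0.36.

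The spliceosomal snRNAs had the lowest median of these classes, -0.68 over the 18 of 49 genes tested, of which 4 fell and none rose. RNU4-1 had 79.9, 87.3, 76.3 and 53.8 CPM at wait1min and 53.8, 33.6, 46.9 and 35.8 CPM at wait15min (log2 fold change -0.80 ± 0.13, adjusted p = 0.0112). RNU4-2 was close to it throughout, with means of 71.2 and 40.4 CPM (-0.81 ± 0.14, adjusted p = 0.0151). Their groups overlapped, since library 56 of wait1min lay near the highest wait15min library. U6atac (RNU6ATAC) had 5.07, 5.50, 5.81 and 2.74 CPM at wait1min and 2.41, 1.83, 2.41 and 1.80 CPM at wait15min (-1.17 ± 0.19, adjusted p = 0.0113). RNU5A-1, a gene for U5 snRNA, went from 15.1, 15.5, 11.8 and 8.21 CPM to 8.63, 4.50, 7.65 and 4.50 CPM (-0.99 ± 0.19, adjusted p = 0.0431). In both, library 56 was the lowest of wait1min. DESeq2 did not call RNU4-1, RNU4-2 or RNU5A-1, and without library 55, and also without library 62, none of the 4 was called.

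**Figure D1:**
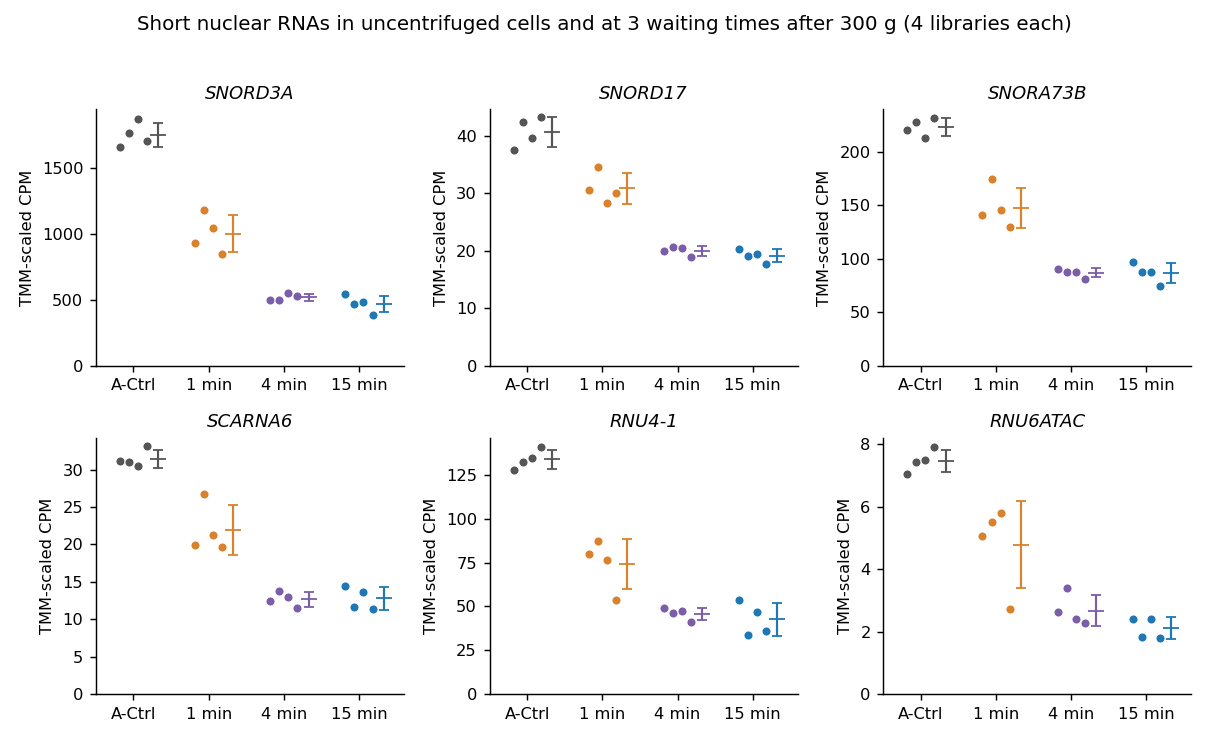
TMM-scaled CPM (vertical axis, from 0) of 6 short nuclear RNAs in A-Ctrl and at 1, 4 and 15 min after 300 g; each point is 1 of 4 libraries, and the bar beside them gives the mean ± SD. In all 6, A-Ctrl is highest, 1 min lies below it, and 4 min and 15 min lie lowest, as for SNORD3A with means of 1751, 1001, 519 and 468 CPM.

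The more abundant short RNAs leaned the same way. Of 210 snoRNA, scaRNA and snRNA genes tested, 19 had a mean of at least 5 CPM over the 16 libraries, and all 19 had a log2 fold change below 0, with a median of -0.67 and 11 called. Over all 10898 genes at that level, 5355 were below 0, the median was 0.0019 and 19 were called lower, these 11 included. Of the 191 short RNA genes under 5 CPM, 117 were below 0, the median was -0.062 and 3 were called. The 5 CPM split was chosen after the values had been seen. Its mean takes in A-Ctrl and wait1min, so SNORA74A passed it although it was at 4.58 CPM at wait15min. Just under the split lay SNORD46 and SNORA71B, with log2 fold changes of 0.107 and 0.125 (neither called). That all 19 were below 0 thus depends on where the split was set.

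The host genes of these RNAs were measured in the same libraries. Of the 14 called short RNAs, 9 lie inside another gene on the same strand. None of the 10 host genes tested was called, and their log2 fold changes ran from -0.06 (IPO7, host of SNORA23) to 0.11 (MATR3, at under 1 CPM, standard error 0.23). SNHG3, the host of SNORA73B, was at 0.09 ± 0.032 (adjusted p = 0.271), and ATG16L1 was at 0.01 ± 0.041 (adjusted p = 0.946). Both lay closer to 0 than the values of the RNAs in their introns, and the difference between RNA and host was not tested.

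Shares of all counts were compared for 16 RNA classes with an exact two-sided permutation test over the libraries, for which 4 against 4 allows no p-value below 0.0286. Box C/D RNAs took 0.116% ± 0.014 (SD, n = 4) of the counts at wait1min, 0.0652% at wait4min and 0.0597% ± 0.0062 at wait15min, after 0.168% in A-Ctrl. Box H/ACA RNAs went from 0.0271% ± 0.0023 to 0.0190% ± 0.0012, and scaRNAs from 0.00989% ± 0.00087 to 0.00667% ± 0.00044. The single gene SNORD3A made up 89.3% of the box C/D counts at wait1min, and without it the class went from 0.0124% ± 0.00057 to 0.0105% ± 0.00030, a log2 ratio of -0.24 in place of -0.96. SNORA73B made up 56.4% of the box H/ACA counts, and without it that class went from 0.0118% ± 0.00080 to 0.00988% ± 0.00032, a log2 ratio of -0.26 in place of -0.51. In each of the 3 classes the wait1min and wait15min libraries did not overlap (exact p = 0.0286, adjusted over 16 classes p = 0.0914). Mitochondrial tRNAs and 7SL reached the same p-values, but RN7SL1 alone held 99.3% of the 7SL counts, and without it the 7SL class went from 0.0115% to 0.0111%, with overlap between the groups. Spliceosomal snRNAs, at 0.0195% ± 0.0040 and 0.0113% ± 0.0023, overlapped through library 56 (exact p = 0.0571, adjusted p = 0.152). After adjustment no class passed 0.05, and with 1 library left out no p-value below 0.0571 is possible.

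**Figure D2:**
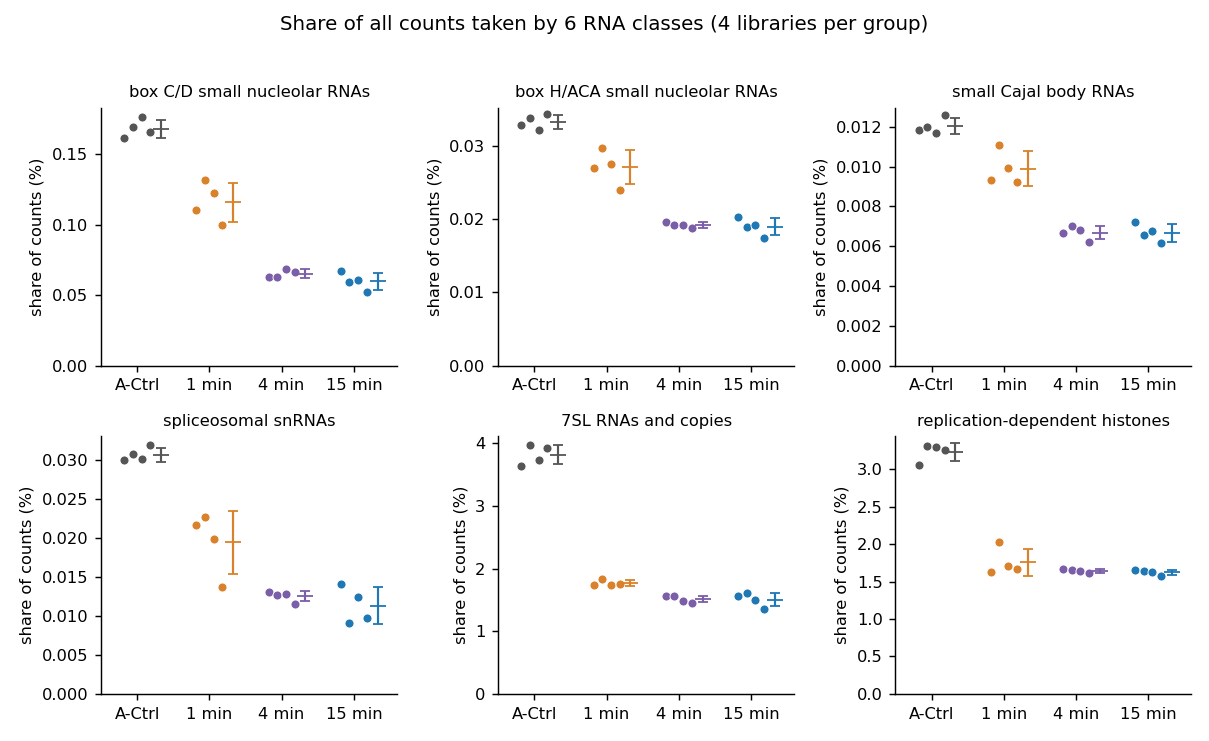
Share of all counts in percent (vertical axis, from 0) of 6 RNA classes in A-Ctrl and at 1, 4 and 15 min after 300 g; points are single libraries and bars the mean ± SD of 4. In the snoRNA and scaRNA panels the step from 1 min to 4 min is larger than that from 4 min to 15 min, and in the 7SL and histone panels the step from A-Ctrl to 1 min is by far the largest.

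7SL RNA, the RNA of the signal recognition particle that brings nascent secreted proteins to the endoplasmic reticulum, was the most abundant short RNA. RN7SL1 had 16394, 18087, 16476 and 16814 CPM at wait1min and 14878, 15202, 14158 and 12581 CPM at wait15min. The groups did not overlap, but the log2 fold change of -0.25 ± 0.049 lay just past the threshold (adjusted p = 0.0512), while the same gene was called between wait4min and wait1min (-0.23, adjusted p = 0.00107). The gene was also called between wait15min and wait1min without library 54, without libraries 54 and 64 and in a model of the 3 waiting groups. Of 69 7SL genes and copies tested, 30 were below 0 with a median of 0.053, and none was called. RN7SL4P was called lower without library 56 or 61, without libraries 54 and 64 and in the model of the 3 waiting groups. RNY1 and RNY3, the Y RNAs of the Ro particle, had log2 fold changes of -0.64 and -1.15 at means under 3 CPM, and neither was called.

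The 10 remaining falling genes were smaller in effect or low in level. NDUFS6, a subunit of respiratory complex I, had 49.6, 48.4, 47.2 and 44.8 CPM at wait1min and 35.5, 33.4, 37.9 and 33.6 CPM at wait15min. The groups stood clearly apart, with a log2 fold change of -0.43 ± 0.047 (adjusted p = 0.000159), and the gene was at 89.5 CPM in A-Ctrl. It was the only one called among the 76 nuclear genes for oxidative phosphorylation tested, a list put together after its value was seen. Of these 76 genes, 64 had a log2 fold change below 0, and the median was -0.084. Without library 54 these values were 49 and -0.030, and NDUFS6 was still called, together with NDUFS5.

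MRPS18C, a protein of the mitochondrial ribosome, went from a mean of 37.7 to 29.9 CPM, with 30.4 CPM in A-Ctrl (log2 fold change -0.33, adjusted p = 0.0139), and was the only one called among 77 mitochondrial ribosomal protein genes, whose median was -0.037 and, without library 54, -0.0064. H4C13, 1 of several genes for the same histone H4, had 184, 235, 195 and 187 CPM at wait1min and 171, 161, 162 and 147 CPM at wait15min (-0.32 ± 0.061, adjusted p = 0.0431). Histone H4 genes have similar coding sequences, so the call for a single copy is uncertain, and DESeq2 did not make it. It was the only called gene of 58 replication-dependent histone genes, of which 57 were below 0 with a median of -0.13, and all 58 had been lower at wait1min than in A-Ctrl. Of the cytosolic ribosomal protein genes 79 of 85 were below 0, with a median of -0.10 and no call. Both leans depended on library 54 of wait1min, which held the highest share of histone counts, 2.03% against 1.63% to 1.71% in the other wait1min libraries. Without it 45 of the 58 histone genes were below 0 with a median of -0.035, H4C3 was called beside H4C13, and the log2 ratio of the histone share moved from -0.11 to -0.038. For cytosolic ribosomal protein genes the values without it were 63 of 85 and -0.032, and the log2 ratio of their share moved from -0.068 to -0.020.

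A further 5 falling genes were, like MRPS18C, higher at wait1min than in A-Ctrl. HMGB1P6, a processed pseudogene of the chromatin protein gene HMGB1, was at 18.3 CPM in A-Ctrl, 58.5 CPM at wait1min, 48.5 CPM at wait4min and 45.8 CPM at wait15min (log2 fold change -0.35 ± 0.051, adjusted p = 0.00345). MIR17HG, the host transcript of the miR-17-92 microRNA cluster, had 40.8, 59.8, 55.3 and 51.2 CPM in the same order (-0.22 ± 0.037, adjusted p = 0.0139). HMGN5, a nucleosome-binding protein gene, went from 13.5 to 10.2 CPM (-0.39, adjusted p = 0.0172), and LSM5, a subunit of the ring that binds U6 snRNA, from 47.9 to 37.8 CPM (-0.33, adjusted p = 0.0310). RPL36AL, with 35.3 CPM in A-Ctrl, went from 77.0 to 60.1 CPM (-0.35, adjusted p = 0.0212). With a curve over GC content removed, MIR17HG, HMGN5, LSM5, RPL36AL and also MRPS18C were not called. HMGN5, RPL36AL and LSM5 were named after their values had been seen, and HMGB1P6 and RPL36AL have close relatives that can share their reads.

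The remaining 2, both noncoding genes without a symbol, had the largest fold changes at the lowest levels. ENSG00000260035, annotated inside an intron on chromosome 15, had 1.44, 1.21, 0.883 and 0.839 CPM at wait1min and 0.246 to 0.489 CPM at wait15min (log2 fold change -1.70 ± 0.28, adjusted p = 0.0115). ENSG00000253190, a long intergenic noncoding RNA, had means of 1.46 and 0.492 CPM (-1.54 ± 0.26, adjusted p = 0.0136). The groups did not overlap in either.

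Over the 24 falling genes, 18 had a higher mean in A-Ctrl than at wait1min and 6 a lower one, so for most of them the later level was further from that of uncentrifuged cells. The 14 short RNAs were all among these 18. Between wait1min and A-Ctrl 81.5% of 17155 genes were called (41.4% higher and 40.1% lower), and between wait15min and A-Ctrl 82.3% of 17148, so a difference from A-Ctrl was usual for any gene. With total counts in place of TMM factors the median log2 fold change between wait1min and A-Ctrl moved from 0.0056 to 0.25, and the split from 7104 higher and 6882 lower to 8527 and 5218, and between wait15min and A-Ctrl from 7171 and 6941 to 8729 and 5130. These comparisons share libraries with the one above, and the levels are given as a description.

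**Figure D3:**
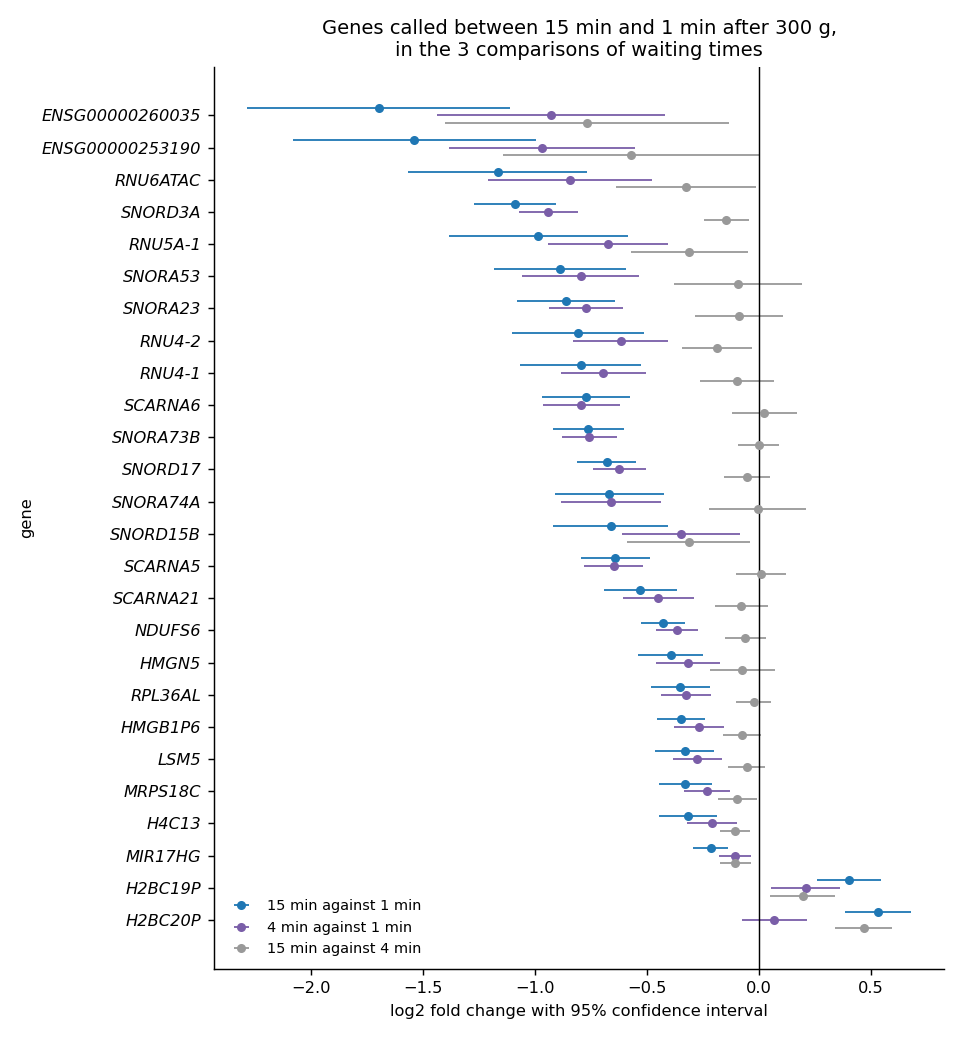
Log2 fold change (horizontal axis) with its 95% confidence interval for the 26 genes called between 15 min and 1 min, in that comparison, in 4 min against 1 min and in 15 min against 4 min, which share libraries pairwise. Most short RNAs have 15 min and 4 min values side by side and a 15 min against 4 min value near 0, and H2BC20P has a log2 fold change of 0.47 between 4 min and 15 min.

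Between wait4min and wait1min 45 of 17462 genes were called (0.258%), 43 lower (0.246%) and 2 higher (0.0115%). The 43 lower genes comprised 16 snoRNAs, scaRNAs and snRNAs and 24 protein-coding genes. Of the 24, 16 had been more than 1 log2 unit higher at wait1min than in A-Ctrl, a comparison that shares the wait1min libraries. Of all genes tested there, of any type, 23.2% were that much higher and also called. The 2 shares follow unlike rules, and the difference between them was not tested. Examples are CENPE, a kinetochore motor, with 14.0 CPM in A-Ctrl, 148 CPM at wait1min and 127 CPM at wait4min, and SMC3, a cohesin subunit, with 14.0, 93.2 and 83.1 CPM. The log2 fold changes were small, at -0.22 for CENPE (adjusted p = 0.0416) and -0.16 for SMC3 (adjusted p = 0.0316). SCAF1 (0.15, adjusted p = 0.0300) and MED16 (0.15, adjusted p = 0.0332), a subunit of the Mediator complex, were the 2 genes that rose. These genes were named because they were called, after their values had been seen. The count depended on single libraries, being 262 without library 54 and 14 without library 60.

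Between wait15min and wait4min, a comparison that shares its libraries with both others, 2 of 17458 genes were called (0.0115%), both higher, and 895 had an unadjusted p-value under 0.05. The 24 genes that fell between 1 min and 15 min had log2 fold changes between -0.77 and 0.02 from 4 min to 15 min, none of them called.

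The 2 genes that rose between 1 min and 15 min were histone H2B pseudogenes on chromosome 1. H2BC20P had 11.7, 13.5, 12.6 and 11.2 CPM at wait1min, 11.9, 12.1, 13.9 and 13.4 CPM at wait4min, and 18.2, 16.7, 19.3 and 16.3 CPM at wait15min. The wait4min libraries thus lay in the range of wait1min, and those of wait15min above both. Its log2 fold change was 0.53 ± 0.070 against wait1min (adjusted p = 0.00101) and 0.47 against wait4min (adjusted p = 0.000318). H2BC19P had 7.95 to 8.44 CPM at wait1min, 8.57 to 10.5 CPM at wait4min and 10.1 to 11.4 CPM at wait15min (0.40 ± 0.068, adjusted p = 0.0139). In GRCh38, H2BC20P (chr1:149844498-149850937, minus strand) and H2BC19P (chr1:149842875-149846486, plus strand) overlap on opposite strands, and both lie next to histone genes of similar sequence. Counting was by strand. Of the 58 replication-dependent histone genes tested, 57 had a log2 fold change below 0, and 45 without library 54.

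CD69, an early activation marker on the surface of lymphocytes, was the second gene called between wait15min and wait4min. It had 10.8, 11.9, 9.99 and 10.2 CPM at wait1min, 9.54, 9.51, 11.1 and 9.23 CPM at wait4min, and 13.6, 12.9, 13.9 and 12.8 CPM at wait15min, against 4.42 to 6.09 CPM in A-Ctrl. The wait15min libraries were above all others. The log2 fold change was 0.44 against wait4min (adjusted p = 0.00142), and 0.31 ± 0.068 against wait1min, which missed the threshold (adjusted p = 0.0849). It was named after its value had been seen.

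**Figure D4:**
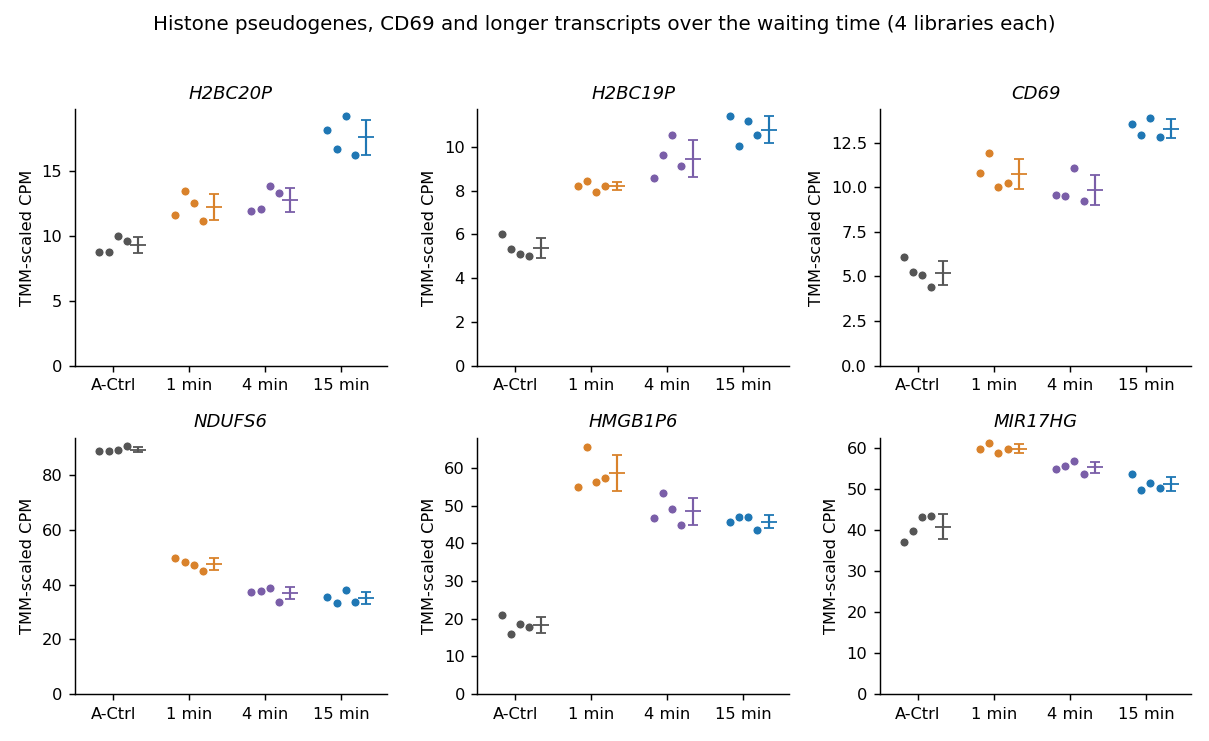
TMM-scaled CPM (vertical axis, from 0) of 6 transcripts that are not short RNAs in A-Ctrl and at 1, 4 and 15 min after 300 g; points are single libraries and bars the mean ± SD of 4. H2BC20P and CD69 are similar at 1 min and 4 min and highest at 15 min, with means of 17.6 and 13.3 CPM, while NDUFS6, HMGB1P6 and MIR17HG are lower at 15 min than at 1 min.

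Immediate early genes, which are transcribed within minutes of a stimulus, had 0 of 18 transcription factors and 0 of 30 feedback genes called, with medians of -0.0067 and -0.056. The feedback list holds CD69, which was called between wait15min and wait4min as given above, and which was also called between wait15min and wait1min without library 54, with total counts, with the GC curve removed and in a model of the 3 waiting groups. FOS was near the detection limit in all groups, with 0.936 to 1.57 CPM at wait1min and 0.825 to 1.26 CPM at wait15min. EGR1 (0.0076 ± 0.079), JUN (0.0029 ± 0.074) and IER2 (0.012 ± 0.044) had log2 fold changes close to 0. For 14 of the 18 transcription factors and 26 of the 30 feedback genes the 95% confidence interval lay within 0.5 of 0.

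The list of chaperones under the heat shock factor HSF1 also holds the factor genes HSF1 and HSF2. Of its 22 genes tested none was called, and the median was -0.071. An unadjusted p-value under 0.05 with a lower level was found for 10 of them, as for 1330 of all 17446 genes. HSP90AA1, the inducible HSP90, had 1524, 1852, 1552 and 1560 CPM at wait1min and 1495, 1412, 1478 and 1386 CPM at wait15min, against 497 to 620 CPM in A-Ctrl. Its highest value was in library 54, and the log2 fold change was -0.16 ± 0.051 (adjusted p = 0.253). HSPH1 (-0.084), DNAJB1 (-0.092) and HSPA1B (0.000071, 10.6 CPM in both groups) did not pass either. HSPE1, the mitochondrial co-chaperone, was called lower by DESeq2, with total counts and in a model of the 3 waiting groups, which also called HSF2, and without library 53 CHORDC1 was. Without library 54 the median of the list was -0.046. HSPA1A was below the filter, with at most 0.429 CPM. All 22 intervals lay within 0.5 of 0.

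Further lists had no call and medians close to 0, although CD6 of the T cell receptor list was called higher in the model of 3 waiting groups, and PFN1 of the actin list without libraries 54 and 64. With any single library left out their medians lay between -0.048 and 0.063, and some changed sign. These were the hypoxia inducible factor targets (31 genes tested, median 0.0055), ATF4 and unfolded protein response genes (29, -0.024), NF-kB subunits and feedback genes (20, 0.027), p53 targets (18, 0.014), NRF2 targets (18, -0.036), calcium and NFAT response genes (17, 0.028) and mechanosensitive channels (15, 0.041). The same held for actin genes under SRF (29, 0.028), nuclear lamina and linker genes (16, -0.0067), the T cell receptor complex (24, 0.035), SR proteins and CLK kinases (20, -0.039) and mRNA decay factors (34, -0.0034). GAPDH, a glycolytic enzyme often used as a reference, was at 2990 and 2952 CPM (-0.011 ± 0.045). PIEZO1, a mechanosensitive ion channel, was at 576 and 612 CPM (0.094 ± 0.029, adjusted p = 0.253), and LCK, the kinase that starts T cell receptor signalling, at 631 and 645 CPM (0.038 ± 0.032).

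Nuclear long noncoding RNAs (16 genes, median -0.073) included MALAT1, with 566 CPM in A-Ctrl, 5686 CPM at wait1min and 5331 CPM at wait15min (log2 fold change -0.086 ± 0.032, adjusted p = 0.299). Mitochondrial tRNAs (13 tested, median -0.29), 7SK copies (19, -0.17), microRNA precursors (102, 0.00067), snoRNA host genes (25, -0.056), LINC genes (254, 0.0052), antisense RNAs (489, -0.0055) and ZNF genes (410, -0.0095) had no call. Single libraries moved several of these medians, to -0.15 without library 64 for mitochondrial tRNAs, to 0.012 without library 55 and -0.26 without library 56 for 7SK, and to -0.10 without library 64 for microRNA precursors. The model of 3 waiting groups called MT-TP, RN7SKP80, MIR3609 and MIR4521 lower, RN7SKP80 was also called without library 56, and MIR3609 without library 53 or 56. Without libraries 54 and 64, KCNQ1OT1 and PVT1 of the nuclear long noncoding RNAs were called lower and ZNF428 higher. Markers of other cell types (5 tested, median 0.0024) had none either. Of the mitochondrial mRNAs and rRNAs, 13 of 15 were below 0 (median -0.085, and -0.050 without library 64), and MT-ND3 was called lower without library 54 or 63, without libraries 54 and 64 and in the model of 3 waiting groups, which also called MT-ATP8 lower. The 2 above 0 were the rRNAs MT-RNR1 and MT-RNR2, which are targets of the depletion step. MT-RNR1 had 0.649 to 4.49 CPM at wait1min and 3.07 to 11.7 CPM at wait15min, with 0.409 to 13.6 CPM at wait4min. It was not called (adjusted p = 0.190), but was called higher without library 56, without libraries 54 and 64 (as was MT-RNR2) and without a filter on low counts, and its part in the other values was not tested.

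The precision of the comparison sets how far these statements reach. The median standard error of the log2 fold change was 0.065, and the 95% confidence interval lay within 1 of 0 for 16746 of the 17446 genes and within 0.5 for 13087 (75.0%). Above 100 CPM it lay within 0.5 for 99.9% of 2397 genes, from 10 to 100 CPM for 99.8% of 7268, from 1 to 10 CPM for 72.1% of 4659, and under 1 CPM for 2.40% of 3122 genes. For nearly all genes above 10 CPM the intervals thus left out changes beyond 0.5 log2 units, and for most genes under 1 CPM they did not. The median absolute log2 fold change over all genes was 0.068 between wait15min and wait1min, 0.065 between wait4min and wait1min and 0.044 between wait15min and wait4min, against 0.68 between wait1min and A-Ctrl.

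Many called genes were short, a feature that the choice of libraries did not use. Of the 24 falling genes, 13 had an exon length up to 300 bases, among 599 tested genes of that length with a median log2 fold change of -0.025. Of the 1904 genes of 300 to 1000 bases 6 fell, and of the 1926 genes over 10000 bases none. Base composition moved with the fold changes across genes as well. The median rose from -0.080 for genes under 35% GC to 0.050 for those over 60% GC, with Spearman's rho of 0.33 over 17193 genes, which are not independent replicates. The same slope was present between wait4min and wait1min (rho 0.38), which shares the wait1min libraries, and was near 0 between wait15min and wait4min (rho -0.034). With a curve over GC content removed 23 genes were called, 20 of them among the 26, and with a curve over length removed 17, all 17 of them among the 26 and 8 of them short RNAs. SNORD3A, SNORD17, SNORA73B, SCARNA5, SCARNA6 and SNORA23 were called in both, while the curve over length ended 9 calls, those of SCARNA21, SNORA53, SNORA74A, SNORD15B, RNU4-2, RNU5A-1, HMGB1P6, RPL36AL and H4C13, with adjusted p-values between 0.059 (SNORA53) and 0.264 (H4C13). The curve over GC content ended the call of RNU5A-1 too.

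**Figure D5:**
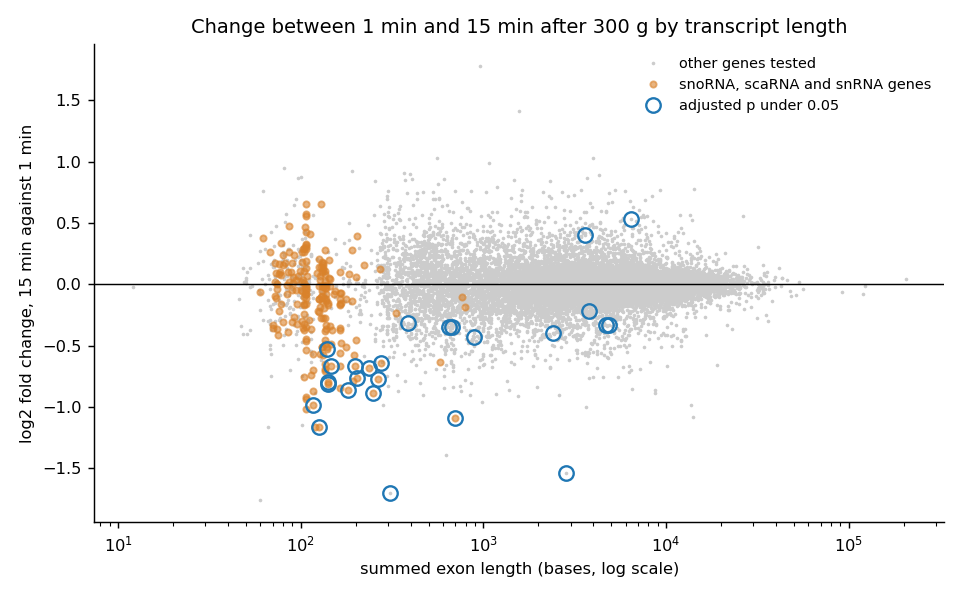
Log2 fold change between 15 min and 1 min (vertical axis) against summed exon length in bases (horizontal log axis) for the 17446 genes tested, with snoRNA, scaRNA and snRNA genes in orange and genes with an adjusted p-value under 0.05 circled. Most circles lie below 0 at short lengths, and the 2 circles above 0 are the H2B pseudogenes.

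Single libraries moved the count of calls. It was 12 without library 62, 14 without library 55 and 15 without library 63, and between 21 and 38 without any of the other 5. Of the 26 genes, 11 were called whichever library was left out, namely SNORD3A, SNORD17, SNORA73B, NDUFS6, SCARNA5, SNORA23, SCARNA6, H2BC20P, SCARNA21, HMGB1P6 and SNORA53. The other 15 lost the call in 2 to 6 of the 8 fits. Without both libraries that stood apart, 54 and 64, 74 genes were called, and all 26 were among them.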

How the data were processed

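RNA-Seq counts of 16 libraries of the 300 g experiment (A-Ctrl, wait1min, wait4min, wait15min, 4 each) were used, and the heat shock group (library numbers 65 to 68) only in an alternative model. Libraries were made with an rRNA depletion kit and a directional kit. The submitters' processing notes name Trim Galore 0.6.5, STAR 2.7.3a, featureCounts 2.0.1 and DESeq2 1.28.1, while the file header gives featureCounts 2.0.3. The authors deposited raw counts of read pairs per gene, on the reverse strand, for the Ensembl 104 annotation of GRCh38. The file also holds another column, the summed exon length in bases, deposited as the counting program wrote it. Of the gene records, 60663 were usable and 1, ANK2, was broken over 3 lines and left out.

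Groups came from the treatment labels. Genes were filtered with filterByExpr (minimum count 10) and tested with edgeR 4.0.16 (R 4.3.3), using TMM factors, the quasi-likelihood F test, only the 2 groups of a comparison, and an adjusted p-value under 0.05. The standard error is the absolute log2 fold change divided by the square root of F, and intervals are at 95%. CPM values are scaled over the 16 libraries. The fits were tested on simulated data. Class shares were compared with an exact permutation test (scipy 1.17.1). Symbols, GC content and gene types came from other releases than the counting, and sequences from GENCODE release 29, of which 1 is not reported here. Intervals cover the spread between libraries, and reads carry no molecular identifiers.

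Genes named were the called ones averaging 1 CPM or more (at most 15 in each direction), those past both thresholds, further genes by p-value up to 20, called and most abundant members of 34 lists, and HSPA1A, HSPA1B, DNAJB1, HSPH1, HSP90AA1, FOS, EGR1, JUN, IER2 and GAPDH. The comparison, members and lists were chosen with earlier results of these data known. Alternatives were the filter, scaling, DESeq2 1.42.0, shared models, time trends, GC and length curves, and leaving out each library.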

Additional observations from a re-analysis of the deposited data

Results flagged for a closer look

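In groups of 4, a value was marked when its gap to the nearest other library exceeded Dixon's 95% critical value for its share of the group's range. Of 172 groups of values examined, 9 were marked, and chance alone would mark about 1 in 20. Library 51 of A-Ctrl had 41220541 counts, while the others of that group had 28665290 to 29673121. Library 54 of wait1min held the highest shares of cytosolic ribosomal protein counts, 4.82% against 4.24% to 4.26%, and of mitochondrial ribosomal protein counts, 0.411% against about 0.388% in each of the others. Library 60 had the lowest cytosolic ribosomal protein share of wait4min, 4.18%, against 4.26% to 4.28%. Library 64 of wait15min held the highest shares of microRNA precursor counts, 0.0207% against 0.0186% to 0.0187%, and of antisense RNA counts, 0.398% against 0.365% to 0.371%. Library 56 had the lowest 7SK share of wait1min, 0.00409%, against 0.00533% to 0.00544%. In A-Ctrl, SNORA23 was highest in library 49, at 15.1 CPM against 14.4 to 14.5 CPM, and ENSG00000253190 in library 52, at 4.38 CPM against 3.15 to 3.29 CPM.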

How the results depend on the processing

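No paired analysis was possible because each library has its own number and the groups share none. The count of 26 genes between wait15min and wait1min was 278 without a filter on low counts, 43 with total counts only, 45 with DESeq2, 63 with all 5 groups and 76 with A-Ctrl and the 3 waiting groups in 1 model, 116 with the 3 waiting groups in 1 model, and 17 with the length curve removed. A trend over waiting minutes called 1 gene (H2BC20P) and a trend over log2 time 98. The 26 genes were all called without the filter, with total counts, in the 3 shared models and in the log2 trend, and 22 of them by DESeq2. Without libraries 54 and 64, an alternative chosen after seeing the data, 74 genes were called, 23 higher and 51 lower. Leaving out 1 library gave 12 to 38. Between wait4min and wait1min, the 45 became 375 without a filter, 18 with 5 groups, 21 with 4 groups, 16 with the GC curve removed and 9 with the length curve removed, and 14 to 262 without 1 library. It was 202 without library 53, 18 without library 57 or 59, and 21 without library 55 or 58. Between wait15min and wait4min, the 2 became 17 without a filter, 1 with 5 groups and 2 to 6 without 1 library (6 without library 61 or 64). Against A-Ctrl, the counts were 13739 to 14083 at wait1min and 13866 to 14299 at wait15min without 1 library. The number of class shares at an unadjusted p under 0.05 was 5 with the other denominator too, and could only be 0 with 1 library left out. The interval counts stayed within 1.5 times with total counts and in the model with A-Ctrl. The 16 list members called became 22 with total counts, 20 with DESeq2, 9 with the length curve removed, 39 in the model of 3 waiting groups, 33 without libraries 54 and 64, and 8 to 24 without 1 library (8 without library 55 or 62). List by list, the model of 3 waiting groups called 5 histones in place of 1 and 8 oxidative phosphorylation genes in place of 1. It called 3 cytosolic ribosomal protein genes and 2 genes of the HSF1 list (HSPE1 and HSF2) in place of 0. With the length curve removed the called snRNAs and box H/ACA RNAs each went from 4 to 2. This listing, and the list medians without single libraries, were added after seeing the data. For the 26 genes, 97 of 545 refits lost the call and none changed direction. The causes were not tested. Few genes under 1 CPM had a narrow interval.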
